A study of Homo sapiens with 6 samples.

Results

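The genes of major histocompatibility complex (MHC) class I and of its peptide loading were followed in A549 cells, an epithelial cell line from a human adenocarcinoma of the lung. The 9 genes, HLA-B, HLA-C, HLA-E, HLA-F, B2M, TAP1, TAP2, TAPBP and NLRC5, were taken by symbol from the 57773 rows of the gene count table; TAP2 stands on 2 rows, so that 10 rows were found. Cells were cultured in RPMI-1640 with fetal bovine serum. The treated group received recombinant human surfactant protein D (rhSP-D) at 10 µg/ml, and the vehicle group received the same volume of the buffer from which that protein was eluted. Both groups held 3 samples, were exposed for 48 h and were profiled by paired-end sequencing of poly(A) RNA. Surfactant protein D is a secreted, carbohydrate-binding collectin of the lung lining. A549 is a single tumour line, so these values describe its cells alone. Whether the samples of a group are separate cultures is not stated in the sources used here; p-values refer to the spread between them, which could be technical.

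MHC class I molecules show peptides from the inside of a cell to CD8 T cells and natural killer cells. Each is a heavy chain bound to an invariant light chain, beta-2 microglobulin, which B2M encodes. Peptides made by the proteasome are pumped into the endoplasmic reticulum by the transporter of TAP1 and TAP2, and tapasin, the product of TAPBP, holds empty class I molecules at that transporter while they are loaded. The heavy chain genes and B2M share promoter elements bound by NF-kB, by interferon regulatory factors and by an RFX, CREB and NF-Y assembly that recruits the transactivator NLRC5. Airway epithelium carries class I at a basal level that interferons raise.

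Promoter sequences of the members are shown because such elements can be looked for in DNA. RefSeq (GRCh38.p14) promoter windows matched 7 of the 9 symbols. The 200 bases before the start are printed 5′ to 3′ in the direction of the gene: HLA-B at chr6:31357180-31357379 on the minus strand, HLA-C at chr6:31272093-31272292 on the minus strand, HLA-F at chr6:29723234-29723433 on the plus strand, B2M at chr15:44711317-44711516 on the plus strand, TAP1 at chr6:32853705-32853904 on the minus strand, TAP2 at chr6:32838740-32838939 on the minus strand, and TAPBP at chr6:33314079-33314278 on the minus strand. For TAP1, which has several listed starts, the start farthest 5′ was used. Capitals mark matches to the interferon-stimulated response element, searched as 2 copies of GAAA with any 2 bases between them, and its shorter form GAANNGAAA. They also mark the NF-kB consensus and the pair TGACG and ATTGG where 15 to 30 bases separate them on 1 strand. Where more than 1 ATTGG lies within that distance, only the one nearest to TGACG is marked. Each was searched on both strands over 250 bases, and matches to the first 3 can overlap.
HLA-B: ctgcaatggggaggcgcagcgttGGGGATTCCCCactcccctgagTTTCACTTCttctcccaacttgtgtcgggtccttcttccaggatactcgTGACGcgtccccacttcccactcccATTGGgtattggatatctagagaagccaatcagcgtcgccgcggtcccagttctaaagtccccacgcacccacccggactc
HLA-C: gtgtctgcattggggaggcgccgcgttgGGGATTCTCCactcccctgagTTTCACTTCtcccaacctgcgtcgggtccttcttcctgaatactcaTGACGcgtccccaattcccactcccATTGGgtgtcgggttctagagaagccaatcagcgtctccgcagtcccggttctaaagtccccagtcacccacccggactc
HLA-F: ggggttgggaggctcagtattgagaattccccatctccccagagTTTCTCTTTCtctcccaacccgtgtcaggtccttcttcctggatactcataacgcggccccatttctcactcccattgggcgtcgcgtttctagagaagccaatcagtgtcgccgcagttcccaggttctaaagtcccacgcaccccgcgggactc
B2M: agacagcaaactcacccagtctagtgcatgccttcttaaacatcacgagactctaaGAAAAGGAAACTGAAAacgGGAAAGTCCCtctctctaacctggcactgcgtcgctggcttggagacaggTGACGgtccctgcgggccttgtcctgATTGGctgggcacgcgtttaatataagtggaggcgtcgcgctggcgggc
TAP1: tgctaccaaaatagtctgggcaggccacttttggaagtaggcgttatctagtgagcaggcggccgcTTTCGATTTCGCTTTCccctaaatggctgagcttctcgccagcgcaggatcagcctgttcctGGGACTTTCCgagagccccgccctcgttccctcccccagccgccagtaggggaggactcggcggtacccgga
TAP2: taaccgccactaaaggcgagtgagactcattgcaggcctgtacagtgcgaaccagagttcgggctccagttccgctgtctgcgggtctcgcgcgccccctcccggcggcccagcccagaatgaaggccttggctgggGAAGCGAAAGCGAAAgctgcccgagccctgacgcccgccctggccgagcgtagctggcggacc
TAPBP: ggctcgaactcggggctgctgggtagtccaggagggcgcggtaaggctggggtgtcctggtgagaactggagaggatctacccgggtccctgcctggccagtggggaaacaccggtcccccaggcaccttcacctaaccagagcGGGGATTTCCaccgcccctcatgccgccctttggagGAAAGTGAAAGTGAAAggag
The pair TGACG and ATTGG, cores of the X2 and Y boxes, stood in HLA-B, HLA-C and B2M, against 0.59% of 27305 promoters. Shares over all promoters used the first start listed for each gene, which need not be the start farthest 5′. HLA-F lacks that pair in these letters. The full response element was matched in B2M, HLA-F, TAP1, TAP2 and TAPBP (3.07% of all promoters), and the shorter form in HLA-B, HLA-C and TAP2 (6.77%). The NF-kB consensus was matched in HLA-B, HLA-C, B2M, TAP1 and TAPBP (9.57%). The matches in HLA-B and HLA-C lie at like places, with TGACG beginning 106 and 105 bases before the start. No element searched was matched in all 7 promoters. These are matches of letters, and binding was not measured.

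Library totals ran from 11396193 to 26030880 counts, with vehicle replicate 1 the shallowest and set apart on the first principal component. Counts are given as CPM, counts scaled to the library total after TMM normalization, which centres the bulk of genes. Keratin genes that mark A549 were abundant, at 12510 to 12740 summed CPM for the 5 epithelial markers in rhSP-D libraries and 12000 to 12120 in vehicle libraries, and KRT7 and KRT18 rose, by 11.5% and 3.45% (edgeR adjusted p = 4.43e-09 and 0.0131), while CDH1 did not pass at a log2 change of -0.06 (adjusted p = 0.132). EPCAM was low, at 1.60 to 2.56 CPM in rhSP-D and 1.47 to 2.49 CPM in vehicle. Of 10 leukocyte markers, CD3D and MS4A1 were among those with no count in any library, and PTPRC had none in rhSP-D and was at 0, 0 and 0.0497 CPM in vehicle. CD68, also a lysosomal gene of other cells, made up most of the summed level of that list, 93.8 to 99.1 CPM in rhSP-D and 86.5 to 91.4 CPM in vehicle, and was the 1 member that rose (edgeR adjusted p = 0.0161), a call lost when vehicle replicate 1, rhSP-D replicate 1 or rhSP-D replicate 2 was left out (adjusted p = 0.0775, 0.0647 and 0.0821) or length and GC trends were removed (0.374), and also with library totals alone as the scaling (0.114) or counts thinned to the shallowest library (0.0655). The other tested leukocyte markers, ITGAM and CD14, did not pass, at log2 changes of -0.80 and -0.11 (adjusted p = 0.129 and 0.725). The KRT18 call was lost as well when vehicle replicate 1, vehicle replicate 3 or rhSP-D replicate 1 was left out (adjusted p = 0.0665, 0.0695 and 0.0936) or the trends were removed (0.947), and with library totals alone (0.732). The part of these markers in the class I result was not tested. Fibroblast markers summed to 13.4 to 14.2 CPM in rhSP-D and 10.8 to 14.9 CPM in vehicle, and neither of the 2 that could be tested passed. Endothelial markers summed to 0.164 to 0.234 CPM in rhSP-D and 0.0865 to 0.223 CPM in vehicle, and none of the 4 measured could be tested. In bulk RNA, more expressing cells and more RNA per cell cannot be told apart.

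The design sets rhSP-D against vehicle to find transcripts that differ after the cells meet the protein. Of the 9 class I genes, all of which passed the filter on low counts, 6 were higher in rhSP-D at an adjusted p under 0.05 and none was lower; of 15848 genes tested 9.31% were higher, 6.63% lower and 15.9% changed in either direction. The balance over all genes depended on the scaling: 1475 were higher and 1051 lower with TMM, 856 and 1961 with library totals alone, and 1271 and 429 with length and GC trends removed. The 6 were HLA-B, HLA-C, B2M, TAP1, TAP2 and TAPBP, with rises between 8.79% and 22.7%. HLA-E, HLA-F and NLRC5 did not pass. The median log2 change of the 9 genes was 0.16, against -0.01 over all genes tested. The 3 rhSP-D values lay wholly above the 3 vehicle values for 7 of the 9, where 16.2% of all genes did so and 31.5% did not overlap in either direction.

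HLA-B encodes a classical heavy chain, and its gene is the most polymorphic of the human class I loci. It was at 44.8, 49.1 and 44.1 CPM in rhSP-D replicates 1, 2 and 3, against 37.9, 36.9 and 37.5 CPM in vehicle replicates 1, 2 and 3. The lowest rhSP-D library lay well above the highest vehicle library. The mean was 45.98 ± 2.697 CPM in rhSP-D and 37.4 ± 0.523 CPM in vehicle (SD, n = 3), a log2 change of 0.30 ± 0.05 (SE, edgeR quasi-likelihood adjusted p = 8.29e-05), or a rise of 22.7% with a 95% interval from 14.4% to 31.7%. HLA-B had the largest fold among the members that passed, except with length and GC trends removed, where B2M was at a log2 change of 0.24 and HLA-B at 0.23.

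HLA-C, the other classical heavy chain gene of the set and a main ligand of killer-cell immunoglobulin-like receptors, was at 118, 121 and 116 CPM in rhSP-D, against 95.4, 98.9 and 102 CPM in vehicle. The groups did not overlap. The mean was 118 ± 2.92 CPM in rhSP-D and 98.9 ± 3.42 CPM in vehicle (SD, n = 3), a log2 change of 0.25 ± 0.03 (SE, edgeR adjusted p = 2.00e-06), or a rise of 19.0% with an interval from 13.7% to 24.7%. The count of HLA-C was between 2.47 and 2.63 times that of HLA-B in rhSP-D libraries and between 2.52 and 2.73 times in vehicle libraries.

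HLA-E presents peptides from the leader sequences of other class I chains to CD94/NKG2 receptors of natural killer cells. It was at 109, 110.3 and 109 CPM in rhSP-D, against 103, 108 and 107 CPM in vehicle. The groups did not overlap, but they came within about 1 CPM of each other and the test was not passed (log2 change 0.04 ± 0.03 SE, edgeR adjusted p = 0.399). The interval of the change ran from -1.38% to 7.65%, so a rise as large as the fitted ones of HLA-B or HLA-C lies outside it. With trends on GC content and gene length taken out, the log2 change of HLA-E was -0.0027.

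HLA-F, a scarce non-classical heavy chain that can reach the surface without peptide, had 106, 96 and 75 counts in rhSP-D, against 50, 65 and 76 counts in vehicle. These were 4.14, 5.23 and 3.76 CPM in rhSP-D and 4.33, 3.63 and 3.78 CPM in vehicle, so the groups overlapped. No difference was detectable at this depth, with a log2 change of 0.17 ± 0.17 (SE, edgeR adjusted p = 0.558) and an interval from -11.1% to 42.3%. The fitted change was as small as 0.03 without rhSP-D replicate 2 and as large as 0.26 without rhSP-D replicate 3.

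**Figure D1:**
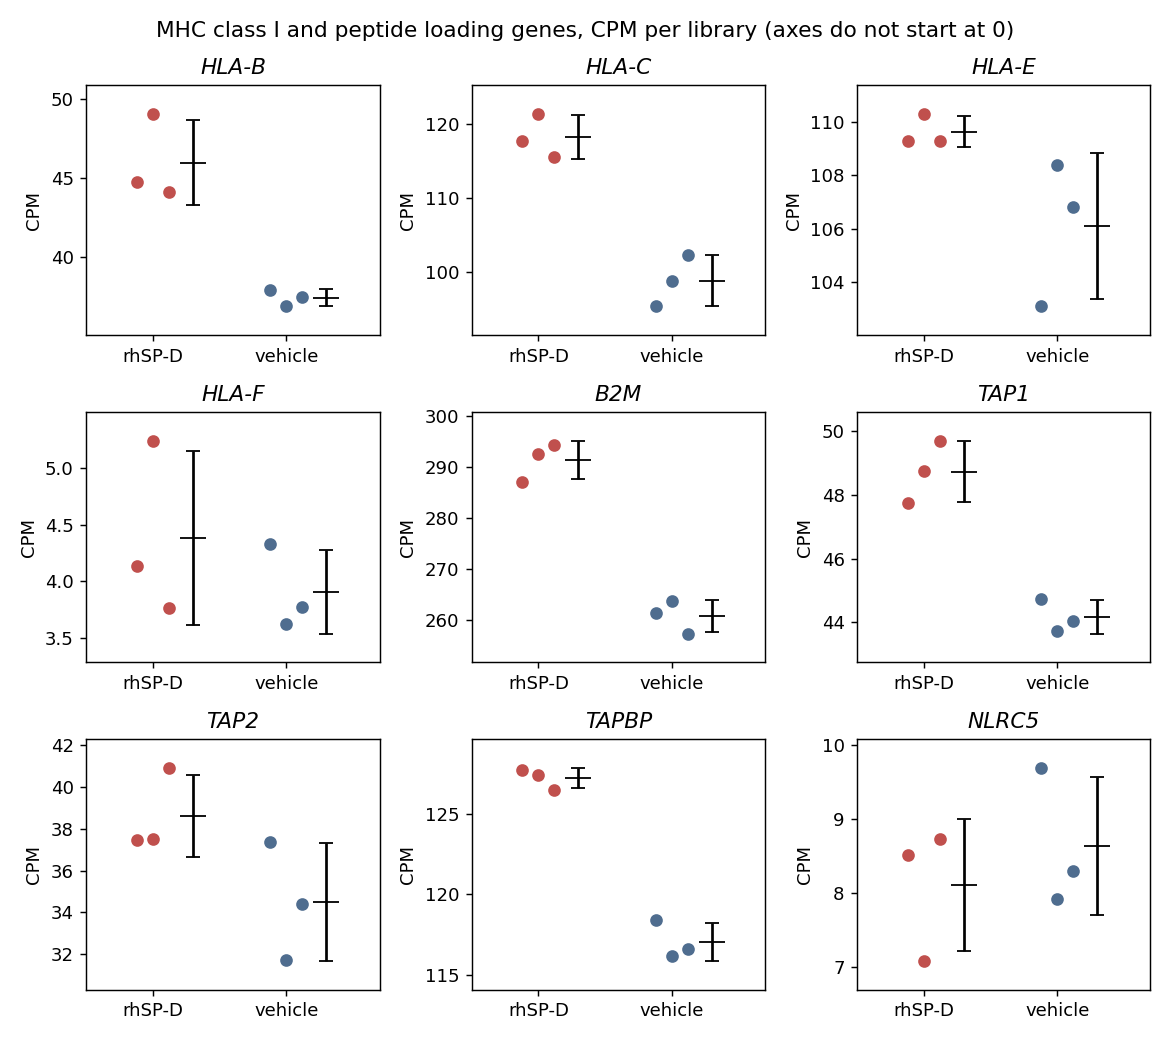
CPM (y axis, not starting at 0) of the 9 class I genes in each rhSP-D library (red) and each vehicle library (blue), with the mean and SD of 3 libraries in black. The 3 rhSP-D points lie above the 3 vehicle points for 7 genes, narrowly for HLA-E and TAP2, and the groups overlap for HLA-F and NLRC5.

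The light chain rose as well. Class I heavy chains generally need the product of B2M to fold and leave the endoplasmic reticulum. B2M was at 287, 292.5 and 294 CPM in rhSP-D, against 261, 264 and 257 CPM in vehicle. All 3 rhSP-D libraries were above all 3 vehicle libraries. Its mean was 291 ± 3.75 CPM in rhSP-D and 261 ± 3.20 CPM in vehicle (SD, n = 3), a log2 change of 0.16 ± 0.02 (SE, edgeR adjusted p = 5.58e-06), or a rise of 11.7% with an interval from 8.24% to 15.3%. The 4 heavy chain genes together summed to 276, 286 and 273 CPM in rhSP-D, against 241, 248 and 250.3 CPM in vehicle, so that the mean of the sum was 12.95% higher in rhSP-D.

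Ratios of counts within a library, which do not depend on scaling, were used to ask whether members moved unequally. HLA-E per B2M was 0.381, 0.377 and 0.371 in rhSP-D, against 0.395, 0.411 and 0.415 in vehicle, a difference of -7.49%. HLA-B per B2M was 0.156, 0.168 and 0.150 in rhSP-D, against 0.145, 0.140 and 0.146 in vehicle, 9.91% higher. The groups did not overlap in either ratio. Each had p = 0.1 in a 2-sided exact permutation test, the smallest that 3 against 3 samples can give, and p = 0.35 after Benjamini-Hochberg adjustment over 7 ratios, so unequal change was not established. These ratios were not corrected for the trends on GC content and gene length. With those trends removed, the edgeR log2 changes were 0.23 for HLA-B, 0.17 for HLA-C, -0.0027 for HLA-E and 0.24 for B2M. HLA-B was then no longer above B2M, while HLA-E stayed below it. The groups overlapped for HLA-C per B2M (0.410, 0.415 and 0.393 in rhSP-D, against 0.365, 0.375 and 0.398 in vehicle; exact p = 0.2), and for the ratios of HLA-F to B2M, HLA-C to HLA-B, TAP1 to TAP2 and TAPBP to TAP1, whose exact p ran from 0.4 to 1.

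**Figure D2:**
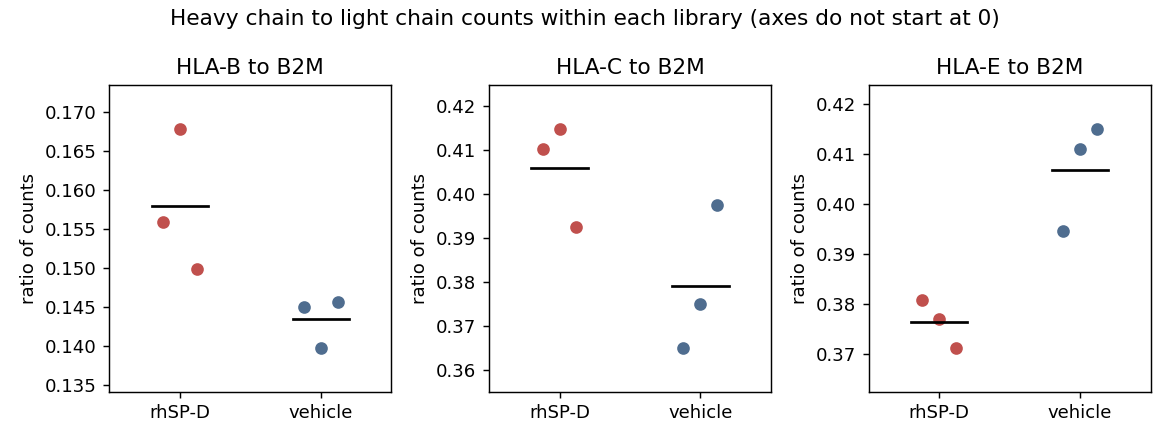
Ratio of the counts of a heavy chain gene to those of B2M (y axis, not starting at 0) in each rhSP-D library (red) and vehicle library (blue), with bars at group means. HLA-E per B2M is at 0.371 to 0.381 in rhSP-D and 0.395 to 0.415 in vehicle, while HLA-B per B2M is higher in rhSP-D and HLA-C per B2M overlaps. The ratios are not corrected for trends on GC content and gene length.

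The 3 genes of peptide transport and loading rose as well. TAPBP was at 128, 127 and 126 CPM in rhSP-D, against 118, 116 and 117 CPM in vehicle. The groups did not overlap, and the rhSP-D libraries differed among themselves by little more than 1 CPM. Tapasin RNA averaged 127 ± 0.656 CPM in rhSP-D and 117 ± 1.14 CPM in vehicle (SD, n = 3), a log2 change of 0.12 ± 0.03 (SE, edgeR adjusted p = 0.00337), or a rise of 8.79% with an interval from 4.44% to 13.3%. Scaled by library totals alone, it just missed the threshold (log2 change 0.08, adjusted p = 0.0513).

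The transporter is a dimer of the 2 TAP proteins. TAP1 was at 47.8, 48.8 and 49.7 CPM in rhSP-D, against 44.7, 43.7 and 44.1 CPM in vehicle, with no overlap between the groups. Its log2 change was 0.14 ± 0.04 (SE, edgeR adjusted p = 0.0250), a rise of 10.4% with an interval from 3.68% to 17.5%. TAP2 was at 37.5, 37.5 and 40.9 CPM in rhSP-D, against 37.4, 31.7 and 34.4 CPM in vehicle. Vehicle replicate 1 nearly reached the lowest rhSP-D libraries. The log2 change of TAP2 was 0.17 ± 0.06 (SE, edgeR adjusted p = 0.0327), a rise of 12.8% with an interval from 4.14% to 22.2%.

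The TAP calls stood near the threshold. The call of TAP1 was lost without vehicle replicate 2 (adjusted p = 0.0745), vehicle replicate 3 (0.0824), rhSP-D replicate 2 (0.0577) or rhSP-D replicate 3 (0.0978), and after removal of length and GC trends (0.103), with library totals alone (0.117), with DESeq2 (0.0986) and with thinned counts (0.133). That of TAP2 was lost without vehicle replicate 2 (adjusted p = 0.222), vehicle replicate 3 (0.0947), rhSP-D replicate 1 (0.0542) or rhSP-D replicate 3 (0.179), and with library totals alone (0.109), DESeq2 (0.108), limma-voom (0.0590) and thinned counts (0.109). Over all alternatives the log2 change stayed between 0.10 and 0.16 for TAP1 and between 0.12 and 0.22 for TAP2.

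The second row with the symbol TAP2 (ENSG00000250264) is a locus that runs from TAP2 into HLA-DOB and shares 98.5% of its exonic bases with other genes. It held 55, 68 and 26 counts in rhSP-D, against 0, 115 and 63 counts in vehicle, and did not pass (edgeR adjusted p = 0.822). The row of TAP2 itself (ENSG00000204267) has 80.2% of the 50-base words of its principal transcript in common with transcripts of other genes. In vehicle replicates 1, 2 and 3 the read-through row was at 0, 6.41 and 3.13 CPM. The row of TAP2 itself was at 37.4, 31.7 and 34.4 CPM there, highest where the other was lowest. In rhSP-D the read-through row was at 2.15, 3.71 and 1.305 CPM, and TAP2 itself at 37.5, 37.5 and 40.9 CPM. How reads over shared exons were counted is not given in the sources used here, so the level and the change of TAP2 are uncertain. The change of both rows together was not tested.

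NLRC5, the transactivator that acts at class I promoters, was scarce. It had 218, 130 and 174 counts in rhSP-D, against 112, 142 and 167 counts in vehicle, or 8.51, 7.09 and 8.73 CPM in rhSP-D and 9.69, 7.92 and 8.30 CPM in vehicle. The groups overlapped, and the highest value was that of vehicle replicate 1. The log2 change was -0.07 ± 0.11 (SE, edgeR adjusted p = 0.746), with an interval from -19.1% to 11.96%, and its sign turned without vehicle replicate 1 (0.006) or rhSP-D replicate 2 (0.010).

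**Figure D3:**
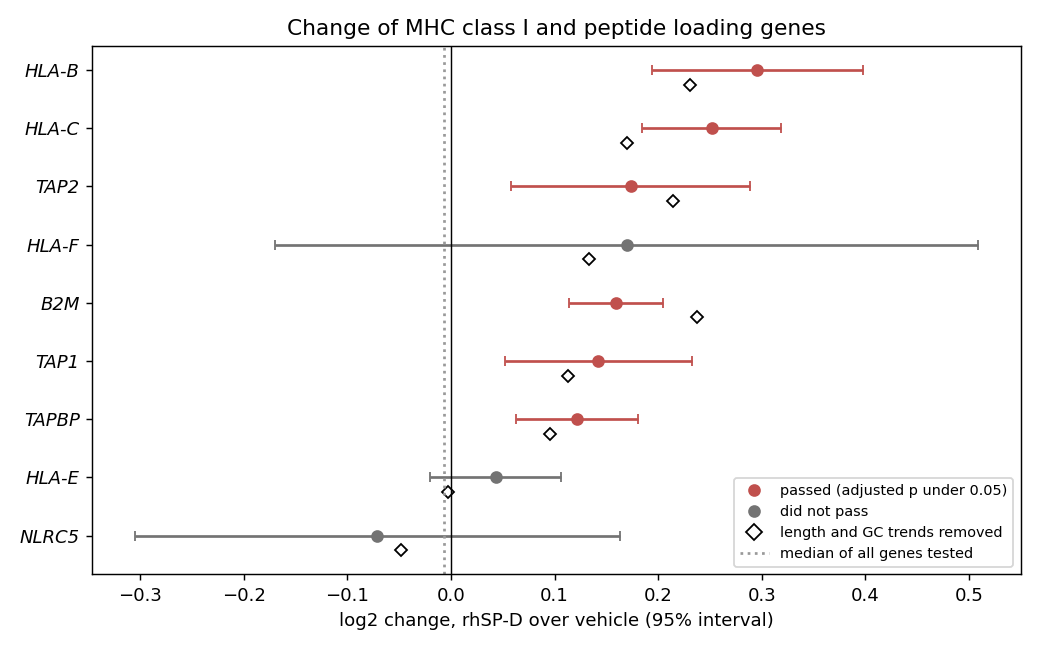
Fitted log2 change of each class I gene, rhSP-D over vehicle (x axis), with its 95% interval; red points passed the test, grey points did not, and open diamonds are values after removal of length and GC trends. HLA-B and HLA-C lead at 0.30 and 0.25, and the intervals of HLA-E, HLA-F and NLRC5 include 0.

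Across 15347 genes tested the log2 change was related to the GC content of the longest transcript (Spearman's rho 0.30) and to exonic length (rho -0.30), a description over genes of the same libraries. Removal of these trends shifted the members unequally. The log2 change of HLA-C, whose longest transcript has 62.7% GC, was then 0.17, and that of HLA-B, at 58.95% GC, was 0.23. That of B2M, at 40.6% GC, was then 0.24, above its uncorrected 0.16. Of the 9 genes 5 were then higher and none lower, TAP1 being the 1 lost, where 8.28% of all genes in that fit were higher.

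Class I genes resemble each other, so reads can be shared. Some 50-base words of a principal transcript also occur in transcripts of other genes in GENCODE 29. Their share was 21.0% in HLA-B, 6.79% in HLA-C, 5.76% in HLA-E, 41.7% in HLA-F and 15.2% in TAP1. None were found for B2M, TAPBP or NLRC5. Words were matched on either strand, so these shares can include genes on the opposite strand and do not measure resemblance among class I genes alone. The alleles of A549 need not match the reference, so single heavy chain counts are uncertain. On the opposite strand, other exons cover 1236 of 4342 exonic nt of HLA-F, 542 of 3051 nt of HLA-B and 456 of 4805 nt of TAP1, and unstranded counting would not separate reads there. HLA-H, a class I pseudogene, was at 7.23, 10.1 and 9.69 CPM in rhSP-D, against 11.1, 7.42 and 7.61 CPM in vehicle, and neither of the 2 tested class I pseudogenes passed.

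Levels were compared between genes as CPM per kilobase of the principal transcript. The order was B2M, HLA-C, TAPBP, HLA-E, HLA-B, TAP1, TAP2, HLA-F and NLRC5 in both groups. B2M averaged 171 ± 2.20 CPM per kilobase in rhSP-D and 153 ± 1.88 in vehicle (SD, n = 3). HLA-C averaged 76.96 ± 1.90 CPM per kilobase in rhSP-D and 64.4 ± 2.22 in vehicle, and TAPBP 67.4 ± 0.347 in rhSP-D and 62.0 ± 0.605 in vehicle. These neighbours overlapped in vehicle but not in rhSP-D, and TAP1 and TAP2 overlapped in both groups. HLA-F averaged 2.68 CPM per kilobase in rhSP-D and 2.39 in vehicle, and NLRC5 averaged 1.19 in rhSP-D and 1.27 in vehicle. With the merged exons of all transcripts as the length, HLA-E stood above TAPBP, and B2M and HLA-C overlapped in rhSP-D at 47.9 and 47.2 CPM per kilobase.

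**Figure D4:**
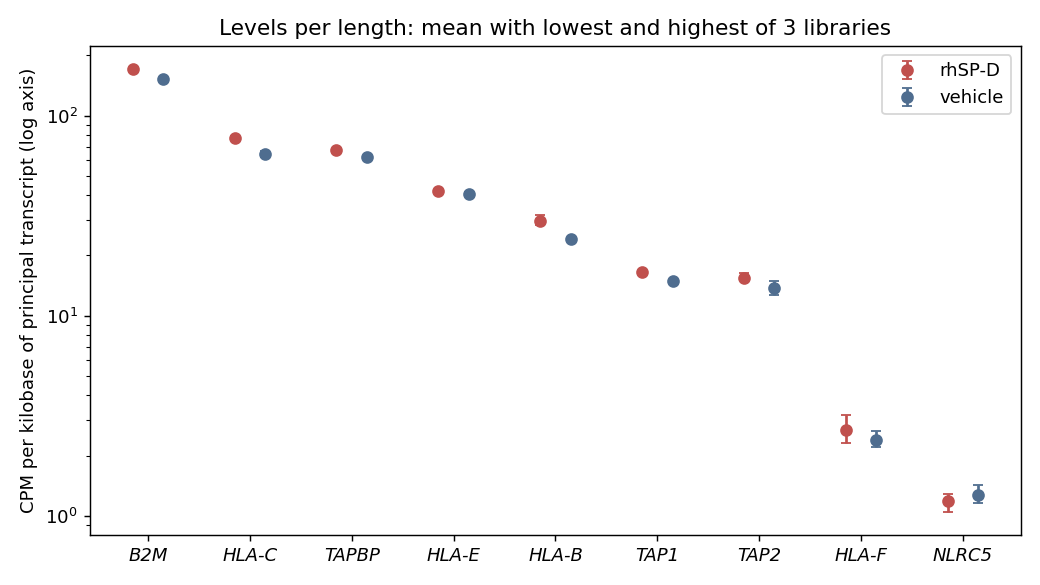
Level of each class I gene as CPM per kilobase of its principal transcript (y axis, log scale), with the mean and the lowest and highest of 3 rhSP-D libraries (red) and 3 vehicle libraries (blue). B2M stands highest at 171 in rhSP-D and 153 in vehicle, and NLRC5 lowest at 1.19 in rhSP-D and 1.27 in vehicle.

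Genes that supply peptides to class I were followed next. Of 11 such genes 3 rose and none fell, where 9.31% of all genes rose and 6.63% fell, with a median log2 change of 0.08. PSME1 and PSME2 encode the subunits of the interferon-inducible proteasome activator PA28. PSME1 averaged 170 ± 3.64 CPM in rhSP-D and 145 ± 6.14 CPM in vehicle (SD, n = 3), a rise of 17.5% (edgeR adjusted p = 1.49e-06). PSME2 averaged 127 ± 4.13 CPM in rhSP-D and 110.1 ± 2.73 CPM in vehicle, a rise of 14.8% (edgeR adjusted p = 4.10e-05).

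PSMB9, an immunoproteasome subunit whose gene lies head to head with TAP1, was at 13.3, 17.2 and 16.3 CPM in rhSP-D, against 11.9, 12.9 and 12.1 CPM in vehicle. The groups did not overlap (log2 change 0.33 ± 0.09 SE, edgeR adjusted p = 0.0155). The call was lost without vehicle replicate 1 (adjusted p = 0.0515), vehicle replicate 3 (0.0757), rhSP-D replicate 2 (0.110) or rhSP-D replicate 3 (0.0790), and with limma-voom (0.0657) or thinned counts (0.132), and DESeq2 gave no adjusted p. The other immunoproteasome subunits did not pass, PSMB8 at a log2 change of 0.08 and PSMB10 at 0.14, nor did the trimming peptidases ERAP1 (-0.08) and ERAP2 (0.34).

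Among chaperones of heavy chain folding and loading, 1 of 7 genes fell and none rose, where 6.63% of all genes fell and 9.31% rose. The median log2 change of the 7 was -0.002. CANX, which encodes calnexin, the membrane lectin that holds newly made heavy chains, averaged 1162 ± 20.95 CPM in rhSP-D and 1252 ± 11.5 CPM in vehicle (SD, n = 3), and fell by 7.15% (log2 change -0.11, edgeR adjusted p = 2.64e-05). After removal of length and GC trends its log2 change was -0.03 and it did not pass (adjusted p = 0.275), while 1 other gene of the list was then called higher and none lower. CALR and PDIA3, partners of tapasin in the loading complex, were at log2 changes of 0.01 and 0.001 and did not pass, and the tapasin homologue TAPBPL was at -0.002.

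Among transcriptional regulators of class I, of which 13 of 14 could be tested, 1 rose and 1 fell, a share near the 15.9% of all genes that changed, with a median log2 change of 0.003. IRF1, an interferon-induced activator that binds response elements like those printed above, was at 25.8, 27.5 and 27.1 CPM in rhSP-D, against 22.0, 22.6 and 23.2 CPM in vehicle. The groups did not overlap (log2 change 0.24 ± 0.06 SE, edgeR adjusted p = 0.00662). RFX5, the DNA-binding subunit of the RFX complex that NLRC5 needs, was at 48.0, 47.7 and 46.8 CPM in rhSP-D, against 52.1, 52.4 and 53.2 CPM in vehicle. It was lower in every rhSP-D library than in any vehicle library (log2 change -0.15 ± 0.04 SE, edgeR adjusted p = 0.0155), a call lost when vehicle replicate 3 or rhSP-D replicate 3 was left out (adjusted p = 0.0782 and 0.0565) and with DESeq2 (0.0739). RELA and NFKB1, subunits of NF-kappaB, did not pass, at log2 changes of 0.003 and -0.002. CIITA, the class II counterpart of NLRC5, was at 0.195 to 0.402 CPM in rhSP-D and 0.223 to 0.260 CPM in vehicle and was too scarce to test.

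None of 7 genes of interferon receptors and their kinases passed, with log2 changes between -0.18 for JAK2 and 0.12 for IFNGR1 in the edgeR fit. With length and GC trends removed, 1 of the 7 was called higher, where 8.28% of all genes in that fit were. Of 9 tested class I related genes of 12, 1 rose, where 9.31% of all genes did. It was FCGRT, the heavy chain of the neonatal Fc receptor, which also pairs with beta-2 microglobulin. FCGRT averaged 71.8 ± 2.21 CPM in rhSP-D and 64.99 ± 2.98 CPM in vehicle (SD, n = 3, edgeR adjusted p = 0.00705). That call was lost when vehicle replicate 3 or rhSP-D replicate 1 was left out (adjusted p = 0.0743 and 0.0726), and after removal of length and GC trends (0.0775). MICA, a stress ligand of the receptor NKG2D, did not pass at a log2 change of 0.09. None of 7 tested genes of class I turnover passed, HM13, a signal peptide peptidase, being at 0.05. Of these 7, 1 was called higher with the trends removed, where 8.28% of all genes in that fit were. Without vehicle replicate 1, 1 was called higher, where 1293 of 16190 genes were. With library totals alone, 2 were called lower, where 1961 of 15848 genes were.

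RNA of the DR, DP and DQ chains of class II was nearly absent, but that of the peptide editors HLA-DMA and HLA-DMB was not. HLA-DMA averaged 14.96 CPM in rhSP-D and 13.1 CPM in vehicle. HLA-DMB averaged 34.5 CPM in rhSP-D and 37.63 CPM in vehicle. Of 12 class II genes, HLA-DMA and HLA-DMB could be tested. Neither passed, at log2 changes of 0.20 and -0.11 (edgeR adjusted p = 0.104 and 0.151). HLA-DRA was at 0.0781, 0 and 0.0502 CPM in rhSP-D, against 0 CPM in all 3 vehicle libraries, and 5 class II genes had no count in any library.

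**Figure D5:**
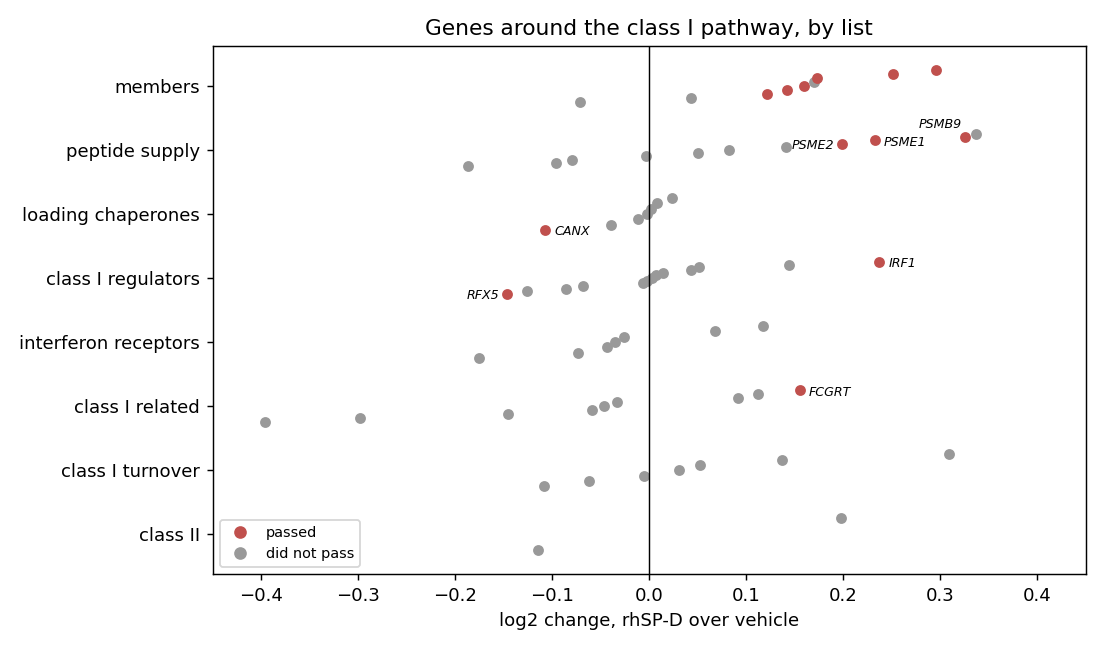
Log2 change, rhSP-D over vehicle (x axis), of each tested gene of the class I set (members) and of 7 lists around it (rows); red points passed the test and are named in the lists, grey points did not. PSMB9, PSME1 and PSME2 of peptide supply and IRF1 lie between 0.20 and 0.33, and CANX and RFX5 at -0.11 and -0.15.

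The genes with the profile nearest to the mean of the 9 members over the 6 libraries were AGTRAP, CD3EAP, CYC1, RPL22 and CRELD1. Their root mean square distance to it on the log2 CPM scale was 0.011 to 0.013, against a median of 0.087 over 7588 genes with at least 20 CPM. Among the members, TAPBP and TAP1 were nearest at 0.022 and 0.023, and NLRC5 was farthest at 0.167. AGTRAP, for example, was at 116, 119.7 and 115 CPM in rhSP-D, against 109.5, 104.5 and 107 CPM in vehicle, which describes the choice and is no test. With the scarce read-through row of TAP2 kept in the mean, all 5 genes were replaced, by C16orf80, BCYRN1, ROMO1, NOMO3 and RPS2P5 at distances of 0.085 to 0.095.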

How the data were processed

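Poly(A) RNA of 6 A549 samples, 3 given rhSP-D and 3 given vehicle, was sequenced in read pairs after Trizol extraction and library preparation with an NEBNext Ultra RNA kit, per the labels' protocols. The tools listed in the submitters' processing notes are cutadapt, STAR 2.7.0a and featureCounts 2.0.0, and the builds GRCh38 and hg38; annotation, strand setting and handling of shared reads: not given in the sources used here. Raw gene counts, as whole numbers, are what the authors deposited. Samples were grouped by their titles.

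The main test used edgeR 4.0.16 (R 4.3.3) with filterByExpr (minimum count 10, minimum total 15), TMM scaling and a robust quasi-likelihood fit of all 6 libraries, tested 2-sided and adjusted by Benjamini-Hochberg over 15848 genes. A gene rose or fell at an adjusted p under 0.05. SE and 95% intervals come from the test statistic and cover the fitted spread only. The procedure was tested on simulated data that held no trends on GC content or gene length, so that test cannot speak to such trends. Lengths, GC content and overlaps come from GENCODE 29, which need not be the authors' annotation and held 52338 of 57773 identifiers. Members and lists were chosen with earlier results of these data known, so counts describe them and carry no test; of the listed symbols SUSD6 and PECAM1 were not matched, and some that enter the counts of their list are not reported here by name.

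Named were the members, of each list up to 3 genes with the smallest p among those called, and the 5 genes nearest in profile with a mean of at least 20 CPM. Members named for their role without passing, and the choice to leave the read-through row of TAP2 out of the profile, were made after values were seen. Alternatives were other scalings and filters, a replicate block, each library left out, DESeq2 1.42.0, limma-voom (limma 3.58.1), removal of trends on length and GC content by splines with 5 degrees of freedom (96.8% of tested genes have both values) and thinning to 11396193 counts.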

Additional observations from a re-analysis of the deposited data

How the results depend on the processing

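HLA-B, HLA-C and B2M passed under all 16 alternatives, with log2 changes of 0.23 to 0.32, 0.17 to 0.28 and 0.12 to 0.24, and TAPBP under 15; TAP1 and TAP2 passed under 8 each. The 6 members called became 3 with library totals alone, and 4 to 6 with 1 library left out. Over all lists, cell type markers included, 10 of 68 tested genes were called, where 15.9% of all genes were. That count became 16 with library totals alone and 6 to 12 with 1 library left out. Calls over all genes, 2526, became 1534 with DESeq2 and 1678 to 2182 with 1 library left out. The replicate block gave 2319 calls over all genes and 6 members; same-numbered libraries had correlated deviations of only -0.08, -0.07 and 0.03, so the numbers were not taken as pairs, and not every library correlated best with its own number. Signs turned, without a call, for NLRC5 (0.0057 and 0.0099 within -0.13 to 0.0099 over the libraries left out, and 0.035 thinned), HLA-E (-0.0027 with length and GC trends removed) and the read-through row of TAP2 (0.39 without vehicle replicate 2, -1.004 to 0.39 over the libraries left out, 0.64 with limma-voom), and for the log2 differences of 2 ratios with 1 library left out, HLA-F to B2M (-0.14 to 0.10) and TAP1 to TAP2 (-0.074 to 0.028); the cause was not tested. DESeq2 gave HLA-F, NLRC5 and PSMB9 no adjusted p. Scarcity limits HLA-F and NLRC5, and a design of 3 against 3 limits the ratios.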
